A study of Mus musculus with 3 samples.

Results

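The 40 genes described here encode proteins of the complement system, of blood coagulation and of plasminogen activation. They were taken by gene name from the gene spots of a mouse expression array, with spots named C1sa read as C1s and spots named C1r as C1ra, and serpins were not included. The list holds 25 complement components, regulators and receptors, and 15 coagulation factors, anticoagulants, protease-activated receptors and plasminogen activation genes. All 40 were on the array, among 31896 gene names, and were covered by 52 probes.

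Complement is a cascade of plasma and membrane proteins that marks cells and debris for removal. In its classical pathway the recognition molecule C1q, with the proteases C1r and C1s, cleaves C4 and C2. The lectin pathway reaches the same step through MASP proteases, and the alternative pathway amplifies cleavage of the central component C3 through factors B and D and properdin. In coagulation, tissue factor binds factor VII and starts a protease chain through factors X and V to thrombin, which also signals to cells through protease-activated receptors. Plasmin, made from plasminogen by the activators uPA and tPA, dissolves fibrin clots. Many of these plasma proteins are made in the liver, but macrophages, fibroblasts, endothelial cells and epithelia also transcribe some of them.

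Primary diffuse-type gastric cancers from 3 mice aged 12 months were compared with normal gastric mucosa. The tumour mice carried Cdh1loxP/loxP and Trp53loxP/loxP together with Atp4b-Cre+, a transgene in which the promoter of Atp4b, a proton pump subunit of parietal cells, drives Cre recombinase. Normal RNA was 1 pool from 5 mucosae of mice of the same age and with the same floxed alleles but Atp4b-Cre-, after mechanical removal of the stroma in 30 mM EDTA. The labels give that step for the normal mucosae and not for the tumours, so its effect and that of the tumour cannot be told apart. Each tumour was hybridised in red (Cy5) against the pool in green (Cy3) on an array of its own, always in this orientation, so that dye and tissue cannot be told apart. The comparison asks how tumours arising after combined deletion of Cdh1 and Trp53 differ from normal mucosa.

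Each value is the log2 ratio of a tumour to the pool, given as mean ± SD over the 3 tumours, with array values in the order of replicates 1, 2 and 3. A gene was called higher or lower when limma's moderated test of the ratio against 0, adjusted by the Benjamini-Hochberg method over all 19440 genes tested, gave a value under 0.05 and the fitted difference was at least 2-fold. The pool is 1 control sample, so its 3 aliquots do not show how normal mice vary. On the arrays, 64.0 to 66.8% of the 43020 gene spots were well above background in red and 52.5 to 54.2% in green, and the number of arrays limits the precision. Cdh1 was lower at -4.24 ± 0.85 (SD, n = 3) and Atp4b at -6.83 ± 0.14, while Trp53 had -0.21 ± 0.15 and was not called. Whether the probes of Cdh1 and Trp53 lie inside the deleted parts is not given in the sources used here. All 8 parietal cell markers and all 8 gastric mucous cell markers were called lower, and of 8 general epithelial markers 4 were called higher and 2 lower. In whole tissue, fewer cells of a type and less RNA per cell cannot be told apart.

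Of the 40 genes, 36 had a probe bright enough to test, and 20 of these were called higher and 2 lower. Over all genes tested, 9.33% were called higher and 9.68% lower. The median log2 ratio of the tested members was 1.55, against 0.05 over all genes. Among complement genes 13 of 22 tested were called higher and 2 lower, with a median of 2.21, and among coagulation and plasminogen genes 7 of 14 were called higher and none lower (0 lower by limma at an unadjusted p under 0.05 as well), with a median of 1.40. At least 4-fold differences were reached by 16 members called higher, and by 2.59% of all genes. In both channels and on every array 29 members stood well above background, and these held the same 20 higher and 2 lower, against 9.53% and 11.5% of genes so filtered. Masp2, C6, Cd46 and Tfpi2 were not well above background in either channel on all arrays and were not tested. Array centring moved the balance of calls over all genes: 49.1% of called genes were higher with loess, 59.3% with centring on spike-in controls, 59.2% on the tested genes and 93.3% on the median of all gene spots, where the median gene stood at 0.77.

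**Figure D1:**
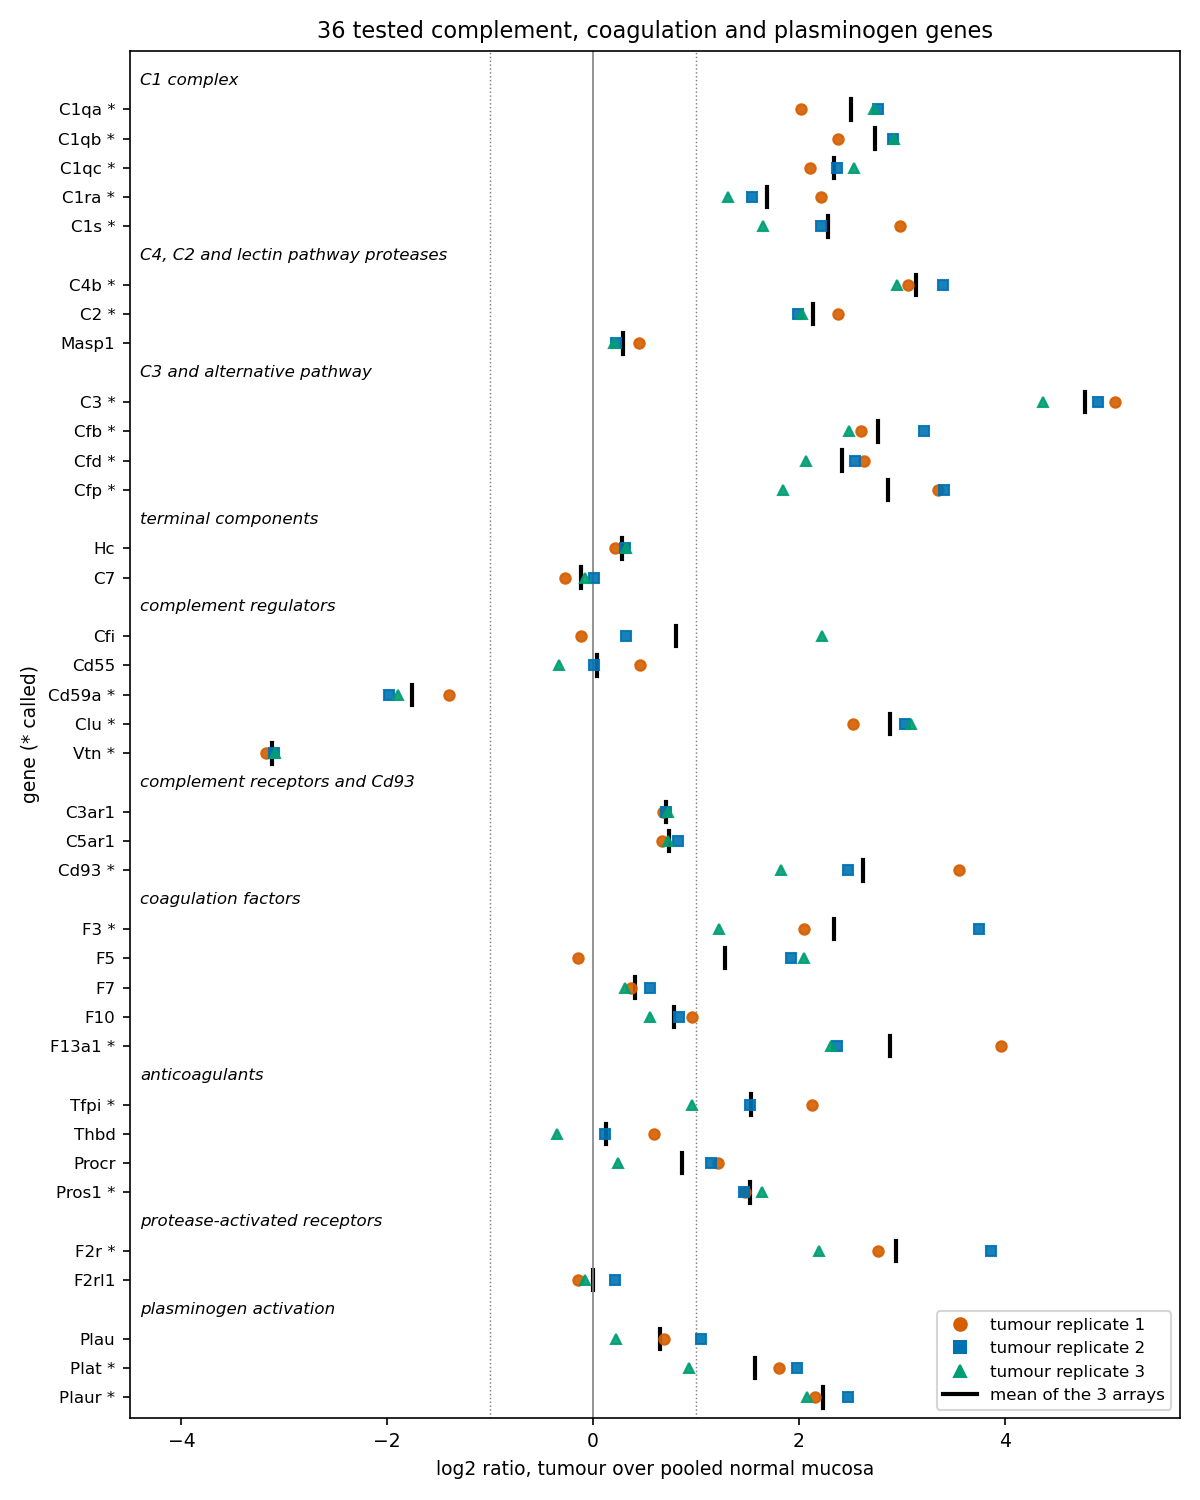
Log2 ratio of tumour over pooled normal mucosa (x axis) for the 36 tested genes (y axis), grouped by role, with a point for each tumour array, a bar at the mean and dotted lines at 2-fold. An asterisk marks a called gene: the 5 genes of the C1 complex and the 4 of C3 and the alternative pathway all lie above the 2-fold line on every array, and Vtn and Cd59a lie below it.

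The C1 complex rose as a whole. C1qa, C1qb and C1qc encode the 3 chains of C1q, and their ratios were tight across tumours. C1qb had 2.38, 2.91 and 2.93 on the arrays, a mean of 2.74 ± 0.31 (SD, n = 3) and 6.68-fold higher signal in the tumours (limma adjusted p = 0.000888). C1qa had 2.02, 2.77 and 2.73 and was 5.68-fold higher (limma adjusted p = 0.00155). C1qc had 2.11, 2.37 and 2.54 and was 5.06-fold higher (limma adjusted p = 0.000816). All 3 chains were lowest on replicate 1, and every array stood more than 4-fold above the pool.

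The proteases of the complex were higher as well, but their order over the tumours was another. C1s had 2.98, 2.22 and 1.65, a mean of 2.28 ± 0.67 and 4.86-fold higher signal (limma adjusted p = 0.00481). C1ra had 2.21, 1.55 and 1.31 and was 3.23-fold higher (limma adjusted p = 0.00472), and its second probe gave 1.92 ± 0.48. Both were highest on replicate 1, where C1q was lowest, and lowest on replicate 3. After normalisation within and between arrays the pool's log2 signal for C1s was 8.61, 8.65 and 8.67, and that of the tumours 11.58, 10.87 and 10.31. Mice carry near-identical copies of C1r and C1s genes, and how far these probes share signal with them was not tested.

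Marker lists of cell types that can transcribe C1 genes also moved. Of 11 tested macrophage markers 10 were called higher, with list medians of 2.05, 2.59 and 2.06 on the arrays, and their summed signal ran from 19487 to 25990 in the tumours against 4141 to 4356 in the pool. Cd68 had 0.48 ± 0.14 (2.58 and called in the processed signals) and Cd163 was not tested. Of 10 fibroblast markers 9 were called higher, with medians of 3.25, 2.90 and 1.50 and summed signals of 48797 to 159036 against 16474 to 18172. The fibroblast medians, like C1ra and C1s, were highest on replicate 1 and lowest on replicate 3. So were the endothelial medians, at 1.02, 0.47 and 0.35. Of all 1814 genes called higher, 803 were highest on replicate 1 and 873 lowest on replicate 3. The part of these cells in the values of complement genes was not tested. Since stroma was removed from the normal mucosae, that step and the tumour cannot be told apart in these markers and genes.

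C1qa, C1qb and C1qc neighbour each other in the RefSeq table, as do C1ra and C1s. The 250 bases before the start of C1qb (GRCm38.p6 chr4:136886201-136886450, minus strand) and of C1qc (chr4:136892915-136893164, minus strand) are shown, with capitals at the core motif of PU.1, a transcription factor of macrophages, on either strand. They were chosen because these genes moved together and hold the motif. C1qa moved with them but is not among the members with a match, and its bases are not shown.
C1qb: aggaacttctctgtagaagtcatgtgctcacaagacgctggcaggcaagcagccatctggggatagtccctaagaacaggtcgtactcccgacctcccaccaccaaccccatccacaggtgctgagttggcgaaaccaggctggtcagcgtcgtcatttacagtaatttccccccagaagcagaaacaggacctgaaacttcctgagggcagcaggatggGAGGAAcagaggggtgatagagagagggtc
C1qc: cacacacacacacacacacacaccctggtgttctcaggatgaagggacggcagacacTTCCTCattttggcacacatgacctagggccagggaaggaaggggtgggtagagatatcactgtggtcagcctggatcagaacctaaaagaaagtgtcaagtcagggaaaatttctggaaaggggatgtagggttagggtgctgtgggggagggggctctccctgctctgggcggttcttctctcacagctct
The RefSeq table held promoters for 28 of the 40 members, each of 300 bases. The PU.1 core, GAGGAA on either strand, was in 10 of these 28 members (35.7%) and in 28.3% of 32851 promoters. Members are counted as genes, and some, such as Tfpi, have more than 1 promoter, so these shares differ in unit. A match is common and is a description of the letters only.

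C4b and C2, which the C1 proteases cleave to build the classical C3 convertase, were both higher. C4b had 3.06, 3.40 and 2.95, a mean of 3.13 ± 0.23 and 8.78-fold higher signal (limma adjusted p = 0.000548). Its probe also lists an accession of C4a, a closely similar copy, so the signal may be shared. C2 had 2.38, 1.99 and 2.03 and was 4.39-fold higher (limma adjusted p = 0.000953). The lectin pathway proteases were near background: Masp1 had 0.29 ± 0.14 and was not called. Its pool signal was not well above background on any array, and with loess the tumour signal was 1.18-fold higher, a bound described below. Its direction depends on the processing, at -0.77 with centring on spike-in controls and 2.06, called, in the processed signals. No probe of Masp2, the protease that follows it, was bright enough to test. C2 and Cfb, which encodes factor B, neighbour each other in the RefSeq table.

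C3, the component on which all 3 pathways converge, had the highest ratio of the members. It had 5.07, 4.90 and 4.37 on the arrays, which makes the tumour signal 27.5-fold that of the pool, at 4.78 ± 0.37 (SD, n = 3; limma adjusted p = 0.00046), and centring on spike-in controls gave 5.42. It ranked 16 from the highest of the 19440 genes tested. The second C3 probe, on mm9 chr17:57343678-57343737 (minus strand), gave 4.22, 4.05 and 3.68 and a mean of 3.98 ± 0.28. Its sequence is shown because it reads the member that changed most.
C3 probe: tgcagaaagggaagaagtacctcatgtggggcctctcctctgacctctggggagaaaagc

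The 3 other genes of the alternative pathway rose with it. Cfb, the factor that forms the pathway's convertase with C3b, had 2.60, 3.22 and 2.49 and was 6.82-fold higher (limma adjusted p = 0.00115). Cfp, which encodes properdin and is made by myeloid cells, had 3.35, 3.41 and 1.84, a mean of 2.87 ± 0.89. The third tumour stood apart, at less than 2 log2 units, while the first and second were nearly equal. Cfd, factor D or adipsin, had 2.63, 2.55 and 2.07, a mean of 2.42 ± 0.30. Cfd depends on how background is treated, with 4.14 ± 0.49 in the processed signals of the scanner software. Adipocytes are a known source of Cfd, and of 7 tested adipocyte markers none was called higher (1 higher by limma at an unadjusted p under 0.05), Cidec and Pnpla2 were lower, though not under every centring, and Lep was not tested, with summed signals of 3646 to 6191 in the tumours and 7985 to 8668 in the pool. Neutrophils hold properdin, and 6 of 10 neutrophil markers were called higher, with medians of 3.83, 1.85 and 2.01 and summed signals of 45442 to 211821 against 12500 to 13331. The part of either cell type was not tested.

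The terminal components, which build the membrane attack complex, did not follow C3. Hc, the mouse gene for C5, had 0.22, 0.31 and 0.32, with a pool signal not well above background on any array. With loess its bound was 1.22-fold higher in the tumours. C7 had -0.27, 0.005 and -0.075 and was not called, and C6 was not tested. With centring on spike-in controls C7 stood at -0.85. Both tested genes lay close to background, where the offset of the background correction pulls ratios towards 0. Hc was called higher at 2.04 in the processed signals, and its ratio turned to -0.63 with centring on spike-in controls, so its direction depends on the processing.

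Regulators of complement went in different directions. Clu, which encodes clusterin, a secreted chaperone that inhibits the terminal complex, had 2.53, 3.04 and 3.09 and was 7.38-fold higher (limma adjusted p = 0.000831). After normalisation within and between arrays its tumour signal was nearly level, at 17.31, 17.26 and 17.27, while the same pool read 14.79, 14.23 and 14.18. The split between channels depends on that normalisation, and which channel gave the difference was not tested. Without loess, and with centring on spike-in controls, Clu stood at 4.05. Cd59a, a membrane inhibitor of the attack complex, had -1.40, -1.98 and -1.90 and was 3.39-fold lower (limma adjusted p = 0.00213), a call lost with centring on the median of gene spots, at -0.64. Cd55, which speeds the decay of convertases, had 0.45, 0.005 and -0.34 and no common sign.

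Vtn fell by the most of all members. It encodes vitronectin, a plasma and matrix protein that binds the terminal complex and also the uPA receptor. Its ratios were -3.18, -3.10 and -3.09, a mean of -3.12 ± 0.05 (SD, n = 3), 8.72-fold lower than in the pool (limma adjusted p = 0.000361). The arrays differed by only 0.09 log2 units. The tumours' log2 signal was low, at 6.50, 6.60 and 6.63, though well above background on every array. At such signals the offset of the background correction pulls ratios towards 0. The processed signals, which carry no offset, gave -4.60, -4.17 and -4.16, a mean of -4.31 ± 0.25. Its probe matches mm9 chr11:78315393-78315665 on the plus strand, a span longer than the 60 bases of the probe, and is shown because it reads the lowest member.
Vtn probe: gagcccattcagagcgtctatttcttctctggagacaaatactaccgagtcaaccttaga
Hepatocytes are the main known source of vitronectin, and of 10 hepatocyte markers 2 were called lower (Apoa1 and Ttr) and 2 higher (Trf and Apob, the latter lost without replicate 1 or 3), with summed signals of 9720 to 13893 in the tumours and 21663 to 23440 in the pool. Their part in the Vtn value was not tested.

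Cfi, factor I, which cleaves C3b and C4b with cofactors, varied most among the regulators. It had -0.11, 0.32 and 2.23, so only the third tumour stood above the pool by more than 2-fold, and its mean of 0.81 ± 1.25 was not called (limma adjusted p = 0.232). The pool's log2 signal was 11.87, 11.82 and 11.55, and the tumours had 11.75, 12.14 and 13.78. It was called with each centring that used no loess, at 1.43 with spike-in controls. Cd46 was not tested.

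Receptors of the anaphylatoxins were dim. C3ar1, the receptor of C3a, had 0.68, 0.71 and 0.73, and C5ar1, that of C5a, had 0.67, 0.82 and 0.73. Both were above 0 on all arrays (limma adjusted p = 0.005 and 0.00509) but below 2-fold. In the pool neither reached a signal well above background on any array. With loess the bounds were 1.63-fold and 1.67-fold higher in the tumours, the same as the ratios themselves. The processed signals, which carry no offset, gave 3.05 for each and called both, while centring on spike-in controls gave 0.15 for C3ar1 and 0.38 for C5ar1 (limma adjusted p = 0.73 and 0.334), below the stated bounds. Cd93, a lectin-like receptor of endothelial and myeloid cells, had 3.55, 2.48 and 1.82 and was 6.14-fold higher at 2.62 ± 0.87 (limma adjusted p = 0.00628).

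**Figure D2:**
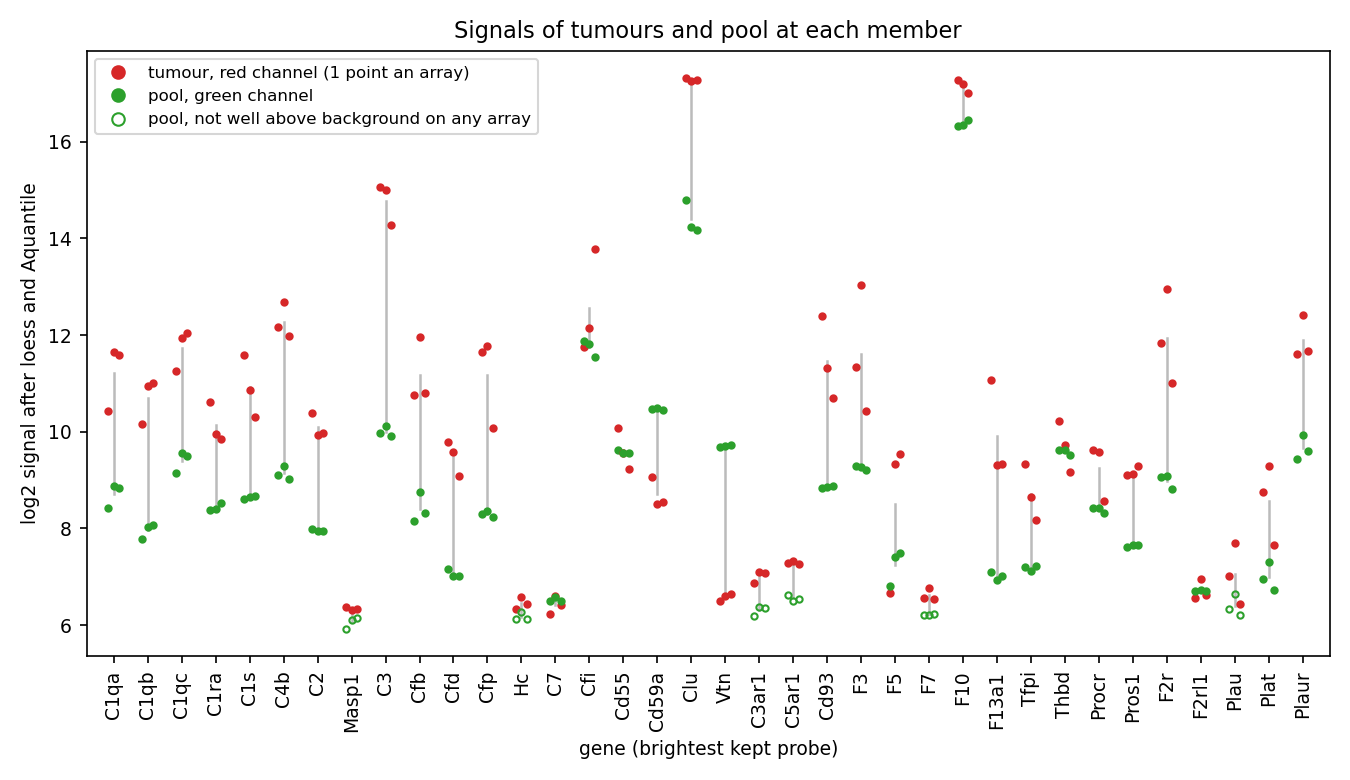
Log2 signal after loess and Aquantile (y axis) of tumours in red and of the pool in green at the brightest kept probe of each tested gene (x axis), with a point for each array and a grey line between the means. Open green points, at Masp1, Hc, C3ar1, C5ar1, F7 and Plau, had no pool signal well above background on any array; levels of different genes cannot be compared, since each rests on its own probe.

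Among coagulation factors F3 and F13a1 rose. F3 encodes tissue factor, the cell surface trigger of coagulation, and it had the widest spread of the called members. Its brightest probe had 2.05, 3.75 and 1.22, a mean of 2.34 ± 1.29 (SD, n = 3), 5.06-fold higher (limma adjusted p = 0.0223). The second tumour stood far above the others, and without replicate 1 the call was lost, at 2.48 with a limma adjusted p of 0.0553, and without replicate 2 the value was 1.63. The second F3 probe was dimmer, had 0.39, 1.40 and 0.005, and was not called at 0.60 ± 0.72. Both probes ranked the tumours alike, with replicate 2 highest and replicate 3 lowest. The dimmer probe, on mm9 chr3:121434609-121435346 (plus strand, over a span longer than itself), is shown because the probes differ in size.
F3 second probe: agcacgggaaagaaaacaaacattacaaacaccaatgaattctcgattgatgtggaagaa

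F13a1, the A chain of factor XIII, which crosslinks fibrin and is carried by platelets and macrophages, had 3.96, 2.37 and 2.31. Its mean of 2.88 ± 0.94 was 7.37-fold higher (limma adjusted p = 0.00589), and replicate 1 stood above the other two. The processed signals put it at 4.07. A second F13a1 probe failed the filter and was not tested, with 0.39, 0.17 and 0.26. Its tumour signal was well above background on only 1 array. Of 6 tested platelet and megakaryocyte markers 1, Ppbp, was called higher, with list medians of 0.89, 0.30 and 0.19 and summed signals of 1330 to 5346 against 877 to 981. Gp1ba and Gp6 were not tested, and the part of platelets in the F13a1 value was not tested.

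The liver-type factors F7 and F5 gave no call. F7, the partner of tissue factor, had 0.36, 0.55 and 0.31, with a pool signal not well above background on any array. With loess its bound was 1.33-fold higher in the tumours. Its direction too depends on the processing, at -0.38 with centring on spike-in controls and 2.92, called, in the processed signals. F5, the cofactor of factor X, had -0.14, 1.93 and 2.05, so replicate 1 was level with the pool and both other tumours stood near 4-fold above it. Its mean of 1.28 ± 1.23 was not called (limma adjusted p = 0.0914), but it was without replicate 1, at 1.99 (limma adjusted p = 0.00402). A dimmer F5 probe showed the same split, with 0.04, 1.57 and 1.68.

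F10 encodes factor X, and its 2 probes disagreed. The brighter probe, at mm9 chr8:13056119-13056178, had 0.96, 0.84 and 0.55 and was not called at 0.78 ± 0.21. Without loess it was called, at 2.10 with centring on tested genes or spike-in controls and 2.86 on the median of gene spots. It also lists an accession of Glrx2, and 13 probes of other genes share a run of at least 20 bases with it. The dimmer probe, at chr8:13055774-13055833, shares no such run and had 2.06, 1.46 and 0.91, a mean of 1.48 ± 0.57. Read by that probe alone, an alternative chosen after the values were seen, F10 was called higher (limma adjusted p = 0.0102). Its pool signal at that probe was well above background on only 1 array. The dimmer probe and 30 bases of the brighter are shown, both on the plus strand, with capitals at the run that most other probes share.
F10 dimmer probe: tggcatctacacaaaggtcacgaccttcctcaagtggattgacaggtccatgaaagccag
F10 brighter probe: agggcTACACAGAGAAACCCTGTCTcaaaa

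Of the anticoagulants, Tfpi and Pros1 rose. Tfpi, the inhibitor of tissue factor with factor VIIa, had 2.13, 1.52 and 0.96 and was 2.90-fold higher at 1.54 ± 0.59 (limma adjusted p = 0.00967). Its dimmer probe had 1.14, 0.78 and 0.38 in the same order, and the processed signals put Tfpi at 2.31. Pros1, or protein S, the cofactor of activated protein C, had 1.48, 1.46 and 1.64 and was 2.88-fold higher (limma adjusted p = 0.00108). The arrays differed by 0.18 log2 units for Pros1 and by 1.17 for Tfpi.

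The endothelial protein C genes were not called. Thbd, which encodes thrombomodulin, had 0.60, 0.12 and -0.35 and no common sign. Procr, the endothelial protein C receptor, had 1.21, 1.15 and 0.24, with a mean of 0.87 ± 0.54 below 2-fold (limma adjusted p = 0.0362), and was called without replicate 3 and with each centring that used no loess. Cd93 and Thbd neighbour each other in the RefSeq table, and their values of 2.62 and 0.12 stood far apart. Of 10 endothelial markers 2, Cldn5 and (lost without replicate 2) Cdh5, were called higher, with medians of 1.02, 0.47 and 0.35 and summed signals of 3799 to 6740 against 3914 to 4078. The medians had the order of Cd93, Tfpi and Thbd over the tumours, as had the fibroblast medians, and the part of endothelial cells was not tested.

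F2r rose and F2rl1 did not. F2r encodes PAR1, the main receptor of thrombin on cells, and had 2.77, 3.87 and 2.20, a mean of 2.94 ± 0.85 and 7.69-fold higher signal (limma adjusted p = 0.0044). Its relative F2rl1 encodes PAR2, which trypsin-like proteases cleave, and had -0.15, 0.21 and -0.08. All arrays showed F2r more than 4-fold above the pool and F2rl1 within 2-fold of it.

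In plasminogen activation Plaur and Plat rose. Plaur, the receptor that holds uPA at the cell surface, had 2.16, 2.48 and 2.08 and was 4.72-fold higher (limma adjusted p = 0.000858). Plat, or tPA, had 1.80, 1.98 and 0.93 and was 2.97-fold higher at 1.57 ± 0.56 (limma adjusted p = 0.00833), with 2.33 in the processed signals. Plau, or uPA itself, had 0.69, 1.05 and 0.22. It passed the test (limma adjusted p = 0.0429) but not 2-fold. Its pool signal was not well above background on any array, and with loess its bound was 1.57-fold higher in the tumours. The processed signals gave 2.59 for Plau and called it, while centring on spike-in controls gave 0.11 (limma adjusted p = 0.802), and without replicates 1 or 2 the adjusted p was 0.121 and 0.135.

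F3, F2r, Plat and Plaur were each highest on replicate 2 and lowest on replicate 3. C4b, Cfb and Cfp, also called, and Plau and F7, not called, had that order too. Of the 20 members called higher 8 were highest on replicate 2, as were 617 of all 1814 genes called higher. Replicate 3 was lowest for 14 of these members and for 873 of those genes. The order as a whole was not counted over all genes. Smooth muscle markers had their highest median on replicate 2 and their lowest on replicate 1, with medians of 0.43, 2.49 and 1.33. Of 7 tested 4 were called higher, with summed signals of 28824 to 80935 against 13523 to 14533. The calls of Actg2 and Des were lost without replicate 2 or 3 and without the filter on dim probes. The part of smooth muscle was not tested. The bases before the starts of F3 (GRCm38.p6 chr3:121723287-121723536, plus strand), Plaur (chr7:24462233-24462482, plus strand) and F2r (chr13:95618467-95618716, minus strand) are shown. They were chosen because these genes were highest on replicate 2, lowest on replicate 3 and hold an AP-1 motif, TGANTCA, in capitals.
F3: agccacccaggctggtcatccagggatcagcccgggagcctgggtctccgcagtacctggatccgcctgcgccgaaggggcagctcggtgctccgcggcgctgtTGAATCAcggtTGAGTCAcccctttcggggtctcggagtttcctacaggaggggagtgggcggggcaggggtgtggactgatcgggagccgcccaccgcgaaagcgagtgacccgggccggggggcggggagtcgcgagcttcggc
Plaur: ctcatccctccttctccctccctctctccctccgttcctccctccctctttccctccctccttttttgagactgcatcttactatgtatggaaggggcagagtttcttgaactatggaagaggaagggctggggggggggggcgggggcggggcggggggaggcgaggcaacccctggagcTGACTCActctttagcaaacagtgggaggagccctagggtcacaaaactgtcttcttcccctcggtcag
F2r: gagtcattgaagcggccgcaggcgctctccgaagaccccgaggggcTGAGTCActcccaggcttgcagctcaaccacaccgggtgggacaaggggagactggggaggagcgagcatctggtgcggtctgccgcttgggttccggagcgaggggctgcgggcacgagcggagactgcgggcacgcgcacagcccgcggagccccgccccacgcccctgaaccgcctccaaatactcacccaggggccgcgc
This motif, which reads the same on both strands apart from its middle base, was in promoters of 6 of 28 members (21.4%, by gene) and in 7.81% of all promoters. Besides these 3 it was in those of C3ar1, Procr and Tfpi2, which were not called or not tested. The promoters of Cfp and F7, which were also highest on replicate 2 and lowest on replicate 3, held no match. Whether motif and order are linked was not tested. The other motifs searched on both strands were the core of the interferon-stimulated response element (3 members, 3.44% of promoters), TTCNNNGAA, bound by STAT factors (5 members, 8.30%), an NF-kB motif (no member, 0.155%) and the TATA box, TATAAA (7 members, 13.6%). These motifs may share bases with one another, and no match says only that the letters are not in this window.

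**Figure D3:**
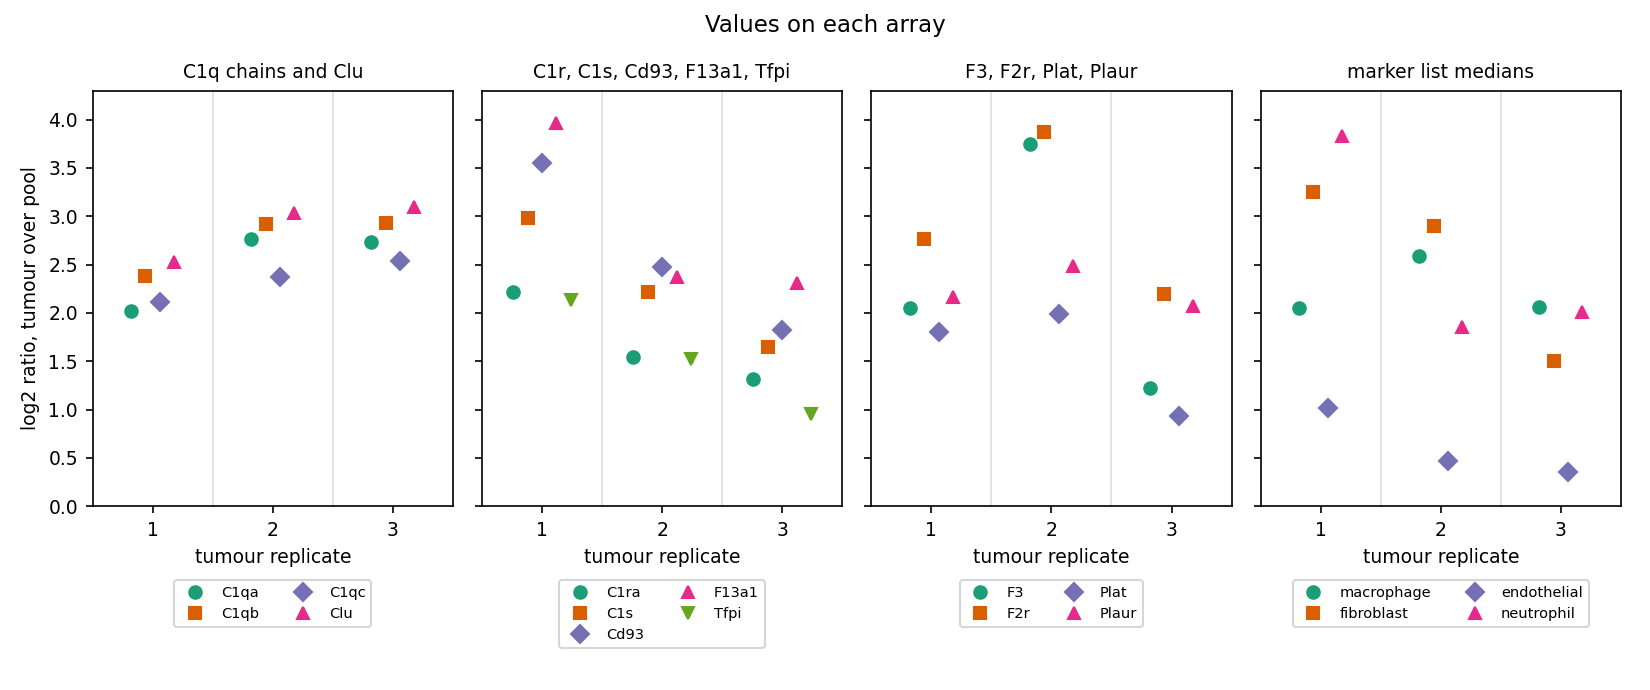
Log2 ratio of tumour over pool (y axis) on each tumour array (x axis) for members in 3 panels and, in the last panel, medians of 4 cell marker lists. The C1q chains and Clu were lowest on replicate 1, and the second panel's genes were highest there. After loess and Aquantile the tumour signal of Clu was nearly level, and its pool signal was highest on replicate 1. F3, F2r, Plat and Plaur were highest on replicate 2. Replicates have no order of their own, and the panels were chosen after the values were seen.

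The members called higher did not share an order over the tumours. Replicate 3 was lowest for 14 of the 20, as it was for 873 of 1814 genes called higher in all. Replicate 1 was lowest for C1qa, C1qb, C1qc and Clu, and replicate 2 for C2 and Pros1. For Clu the signals after loess and Aquantile differed in the pool and were nearly level in the tumours, a split that depends on that normalisation. The span between the highest and the lowest array was 2.53 for F3, 1.73 for Cd93 and 1.67 for F2r, and 0.18 for Pros1. Each of the 20 was above the pool on all arrays.

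The rest of the complement pathway was counted beside the members. Of 20 tested complement genes outside the list 6 were called higher and none lower (3 lower by limma at an unadjusted p under 0.05), with a median of 0.69. Among those called, Itgax and Itgb2, which form complement receptor 4, had 2.04 ± 0.90 and 1.06 ± 0.28, and Cr2 (1.69, with a pool signal not well above background), C5ar2 (1.06) and Colec12 (1.03) were also higher. Each of these 5 calls was lost under some alternative: Itgax and C5ar2 without replicate 3, Cr2 and Colec12 without replicate 1 and Itgb2 without replicate 2, and Colec12 also with centring on tested genes or spike-in controls.

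Among 15 other coagulation genes 3 were called higher and 2 lower, with a median of -0.24. Vwf, von Willebrand factor of endothelium and platelets, had 3.21, 2.89 and 2.29. Kng1, or kininogen, had 2.58, 1.34 and 2.13, with a pool signal not well above background, and Tbxas1, thromboxane synthase, had 1.38 ± 0.48. Proz, protein Z of plasma, had -3.68, -3.52 and -3.45, and F2, prothrombin, -1.54, -1.23 and -0.97. The tumour signal of F2 was well above background on only 2 arrays. The fibrinogen genes Fga, Fgb and Fgg were not tested. Among 7 other fibrinolysis genes Anxa2 (2.11 ± 0.81) and S100a10 (1.49 ± 0.28), which form a plasminogen receptor, and Lrp1 (1.24 ± 0.47) were higher. Lrp1 was lost without replicate 1, at 0.97. Cpb2, an inhibitor of fibrinolysis, was lower at -1.30 ± 0.18, and so was Plgrkt, a plasminogen receptor, at -1.13 ± 0.02. Centring on the median of gene spots ended both calls, with Cpb2 at -0.96 and Plgrkt at 0.068, and Plgrkt was also lost with centring on tested genes or spike-in controls. Plg, plasminogen itself, was not tested.

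Of the 22 called members, 20 kept their call and direction under every alternative run, and F3 and Cd59a did not. Members called higher numbered 26 with the scanner software's processed signals, which added C3ar1, C5ar1, F7, Hc, Masp1 and Plau, all dim in the pool, beside 2 lower. Over all genes 19.2% were then called higher and 15.8% lower. With centring on spike-in controls 24 members were higher, adding Cfi, F10, F5 and Procr, and 2 lower, against 16.2% and 11.2% of all genes. Centring on the median of gene spots gave 27 higher and 1 lower, against 39.9% and 2.86% of all genes. The values of the authors' deposited table, filled for 29 members, gave 20 higher and 2 lower, against 12.1% and 17.4% of all genes.

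**Figure D4:**
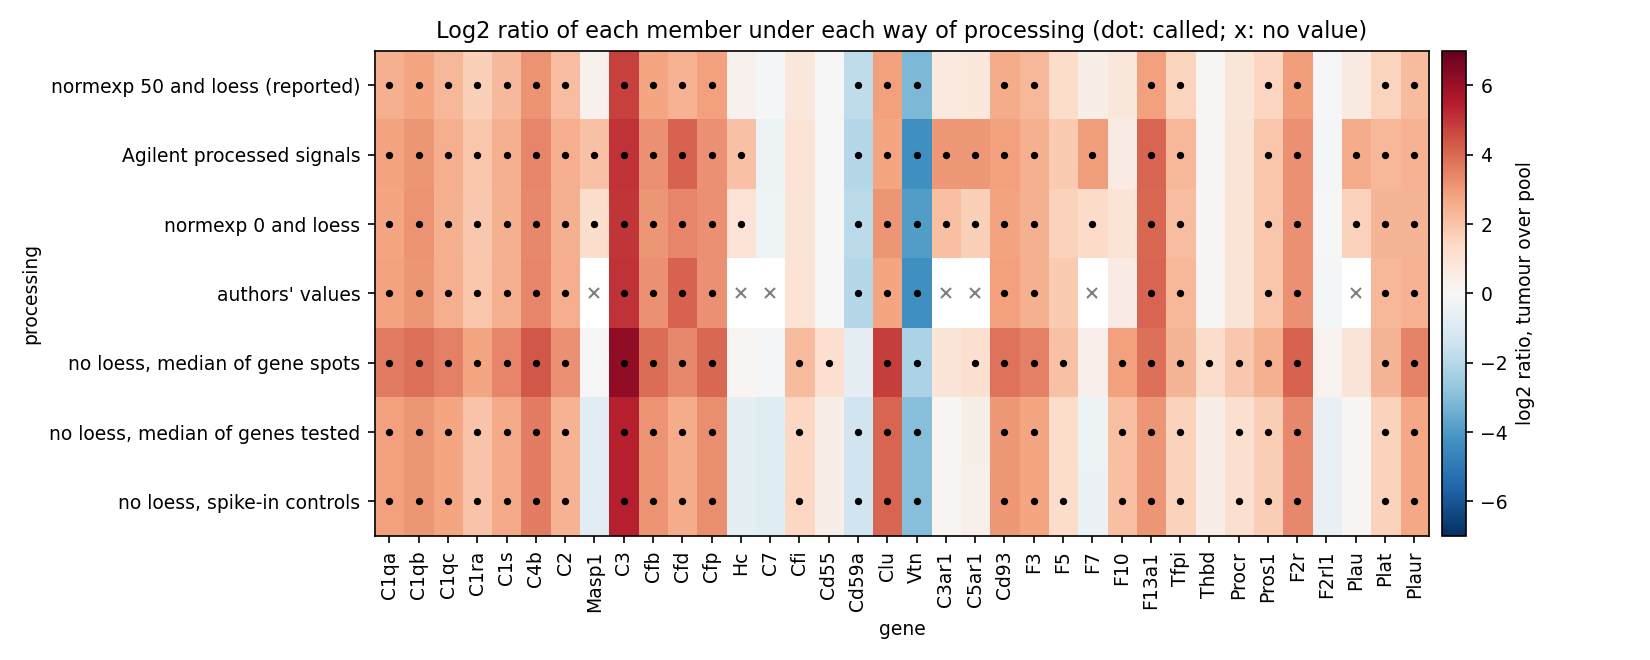
Log2 ratio of each tested member (x axis) under the reported processing and the other background corrections and centrings (y axis), as colour, with a dot where the gene was called and a cross where it had no value. The columns of C3, the C1 complex and Vtn keep their colour and dots in every row, while Masp1, Hc and F7 are called in the rows with the processed signals or no offset and turn below 0 in rows centred on the tested genes or spike-in controls.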

How the data were processed

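RNA of 3 tumours and of the pool, 250 ng each with an integrity number above 7 per the labels, was labelled and hybridised to 2-colour Agilent arrays. The deposited scanner files give intensity values, as mean spot and median background signals made with Agilent Feature Extraction, version 10.7.3.1 per the file headers and 9.5.3 per the submitters' processing notes. Its processed signals are background-subtracted and dye-normalised, and probes carry mm9 positions, as the file headers say. Log2 ratios, tumour over pool, fill the table that the authors deposited: of its filled probes 99.8 to 99.9% matched, to 0.01, the deposited log10 ratio of the scanner files put on the log2 scale. Its array medians were -0.15, -0.13 and -0.11, with no further centring, and 48.3 to 49.6% of its probes are blank, for a reason not stated here.

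In limma 3.58.1 (R 4.3.3) signals were corrected with normexp at an offset of 50 on all spots and normalised by loess within arrays, control spots at weight 0. Control and outlier-flagged spots were left out, spots of a probe averaged, and probes kept that were well above background on all 3 arrays in either channel, 24176 of 39429. A gene was its brightest kept probe, named through its RefSeq accession (26055 probes, GRCm38.p6, names only) or else as in the files (13374). The test against 0 used lmFit and eBayes, two-sided, after a check on simulated data. Second probes were tested in a fit over all kept probes. For a gene dim in the pool, the bound is the tumour mean over the mean of, per array, the pool signal or, if higher, the array's lowest signal that passed as well above background. For Hc, C3ar1, C5ar1, F7 and Plau it equals the fold of the reported ratio. It is not a minimum under other centrings. Channel signals for this came from loess and then Aquantile, and such bounds are open to dye bias. Summed signals are linear sums over a list on these scales. No spot was saturated.

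Members and lists were chosen with earlier results of these data known. All members are named, with up to 4 called genes of each other pathway list (more where 6 or fewer were called, chosen after their values were seen) and up to 3 of each marker list. A gene that this rule selects is named nowhere and is not reported here. Alternatives were other background corrections, centrings, filters, probe choices, the authors' values, leaving out each replicate and, added after seeing the data, leaving out the F10 probe with the shared run. All arrays lay on 1 slide, so no batch could be tested.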

Additional observations from a re-analysis of the deposited data

How the results depend on the processing

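Members called lower numbered 1 with centring on the median of gene spots, where Cd59a was lost, and 2 under every other alternative; members called higher ranged from 20 to 27. Leaving out a replicate gave 20 to 21 members higher and 2 lower, and for all genes 1660 to 1686 higher and 1776 to 1920 lower. All genes called higher numbered 3738 with Agilent's processed signals, 3191 with a normexp offset of 0, 7752 with median centring, 3089 with centring on tested genes and 3154 on spike-in controls, against 1814; lower calls were 3078 with processed signals and 556 with median centring, against 1881. For other complement genes, higher calls were 11 with processed signals, 11 with offset 0 and 13 with median centring, and lower calls 3, 3 and, with tested-gene centring, spike-in centring and the authors' values, 2 each. Other coagulation genes had 6, 5 and 6 higher with processed signals, offset 0 and median centring, and 1 lower with both channels required or the authors' values. Other fibrinolysis genes had 0 lower with median centring and 1 with tested-gene or spike-in centring. Signs turned for Masp1 (-0.007 with median centring, -0.77 with tested-gene and with spike-in centring), Hc (-0.63) and F7 (-0.38) with the latter pair, Cd55 (-0.004 with processed signals and with the authors' values), F2rl1 (0.25 with median centring), Plgrkt (0.068) and Pnpla2 (0.090) with median centring. They also turned when a replicate was left out for Cd55 (-0.17 to 0.23), Thbd (-0.12 to 0.36), F2rl1 (-0.11 to 0.068) and Hba-a2 (-0.25 to 1.93). The cause was not tested. No paired analysis was possible because every array holds the same pool and only 1 tumour group exists. Signal over background limits the 6 members dim in the pool and the 4 not tested.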

Other observations

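Genes of blood and of the stomach's outer lining were read beside these pathways, as values only. Of 5 tested red blood cell markers none was called (0 by limma at an unadjusted p under 0.05 as well), and the list medians were 3.16, -0.57 and 0.41 on replicates 1, 2 and 3, with summed signals of 15186 to 215002 in the tumours and 21183 to 30716 in the pool. Hba-a2, an alpha globin gene, had 3.44, -0.91 and 0.41. Replicate 1, where these markers were highest, was also the array on which C1s, Cd93 and F13a1 were highest and the C1q chains lowest. Without replicate 1 C1s, Cd93 and F13a1 were still called higher.

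Of 5 tested mesothelial markers 2 were called higher and 2 lower. Msln, which encodes mesothelin, had 6.91, 6.26 and 6.80. Wt1 had 2.87, 1.92 and 1.33, with a pool signal not well above background on any array. Gpm6a had -2.90, -2.98 and -2.68, with a tumour signal well above background on only 2 arrays, and Krt19 was lower at -1.27 ± 0.78. Upk3b, Lrrn4 and Bnc1 were not tested.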
